A study of Homo sapiens with 6 samples.

Results

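The 8 genes CEBPA, CEBPD, GATA2, TAL1, CSF1R, CD14, CD33 and MPO mark the myeloid and erythroid branches of blood formation, and the H3K27me3 islands at them were described in 3 lymphoma lines of the B cell lineage. They were chosen by name and position, as a list of lineage genes with hg19 coordinates given to the kilobase, and each gene was read together with 5 kb to either side (its window). Earlier results of these data were known when the list was made. An island is an interval that the authors' caller listed as enriched over input. The windows met 28 of the 72972 islands listed in all, which were 8 of 21320 in Pfeiffer cells, 10 of 23180 in WSU-DLCL2 cells and 10 of 28472 in KARPAS-422 cells.

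H3K27me3, the trimethylation of lysine 27 of histone H3, is placed by the Polycomb repressive complex with EZH2 as its catalytic subunit, and marks genes that are kept silent. Genes of other lineages are typical targets, because a committed cell keeps the regulators of alternative fates switched off. In mouse B cells, forced expression of C/EBP alpha, the product of CEBPA, turns the cells into macrophage-like cells, so silence of myeloid regulators belongs to B cell identity. Of the 8 genes, CEBPA, CEBPD, GATA2 and TAL1 encode transcription factors, CSF1R, CD14 and CD33 encode receptors of the cell surface, and MPO encodes an enzyme of neutrophil granules.

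Pfeiffer, WSU-DLCL2 and KARPAS-422 are lines of diffuse large B cell lymphoma, and the labels give EZH2 mutant as the genotype of all 3, without naming the mutation. The labels give an average gIC50 of 28 nM for Pfeiffer, 134 nM for WSU-DLCL2 and 232 nM for KARPAS-422, without spelling the term out. The study describes the lines as differing in sensitivity to GSK126, an inhibitor of EZH2. No line without mutant EZH2 was analysed here, and the labels name no drug treatment of the cells. Fixed chromatin of each line gave 1 immunoprecipitated and 1 input library. A difference between lines therefore has no replicate spread to be set against, and none was tested.

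The autosomal islands held 17024803 H3K27me3 reads and 8800268 input reads in Pfeiffer cells, 17188115 and 8224578 in WSU-DLCL2 cells, and 16039824 and 5694645 in KARPAS-422 cells. They covered 25.6% in Pfeiffer cells, 24.8% in WSU-DLCL2 cells and 24.7% in KARPAS-422 of the autosomes. Expression was not measured, and the B cell identity of the lines was not checked against marker genes here. An interval with no island had too little enrichment to be listed, which is not the same as no mark. Neighbouring islands in the lists lay at least 3 kb apart, so a shorter break in the mark cannot be seen.

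The reference promoters of 6 of the 8 genes were matched by symbol in the RefSeq table for GRCh38.p14, with 9 entries between them. The 250 bases before the start are shown for the first listed start of CEBPA, GATA2, TAL1 and CSF1R, because these promoters differ in CG dinucleotides, the feature that sets CpG island promoters apart, and because the islands of some lines break inside these genes or next to them. All 4 lie on the minus strand and are written 5′ to 3′ with every CG in capitals. On GRCh38.p14 they are chr19:33302535-33302784 for CEBPA, chr3:128493202-128493451 for GATA2, chr1:47232336-47232585 for TAL1 and chr5:150113366-150113615 for CSF1R.
CEBPA: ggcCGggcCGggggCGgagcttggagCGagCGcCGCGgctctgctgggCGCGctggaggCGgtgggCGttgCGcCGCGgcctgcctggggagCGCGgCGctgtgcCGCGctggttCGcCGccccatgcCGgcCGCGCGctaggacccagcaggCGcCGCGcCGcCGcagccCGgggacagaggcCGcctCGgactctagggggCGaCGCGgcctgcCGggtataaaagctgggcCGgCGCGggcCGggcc
GATA2: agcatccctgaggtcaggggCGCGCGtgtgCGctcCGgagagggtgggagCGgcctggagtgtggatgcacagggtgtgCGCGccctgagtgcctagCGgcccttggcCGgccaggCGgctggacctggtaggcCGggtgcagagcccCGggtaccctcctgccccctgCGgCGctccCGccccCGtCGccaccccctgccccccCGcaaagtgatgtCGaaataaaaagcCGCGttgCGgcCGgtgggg
TAL1: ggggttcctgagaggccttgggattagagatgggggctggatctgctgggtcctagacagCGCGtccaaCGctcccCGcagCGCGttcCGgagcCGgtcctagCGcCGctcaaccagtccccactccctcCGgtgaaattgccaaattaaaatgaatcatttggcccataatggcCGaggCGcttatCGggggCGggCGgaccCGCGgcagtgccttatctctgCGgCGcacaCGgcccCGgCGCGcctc
CSF1R: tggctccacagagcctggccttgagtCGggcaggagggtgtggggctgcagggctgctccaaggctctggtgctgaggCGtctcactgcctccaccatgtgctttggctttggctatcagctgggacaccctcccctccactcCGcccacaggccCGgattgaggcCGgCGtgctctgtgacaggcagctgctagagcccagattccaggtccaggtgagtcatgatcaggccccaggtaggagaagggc

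The promoters of CEBPA, GATA2 and TAL1 held more CG than those of the 3 receptor genes, and CEBPD and MPO were not matched. CEBPA had 41 CG dinucleotides in its 250 bases, a count reached by 1.73% of the 35116 promoters in the table. GATA2 and TAL1 had 24 each before the first listed start, a count reached by 23.7% of promoters. Their other starts had 18 in GATA2, 4671 bases away, and 14 in TAL1, 620 bases away, a count reached by 44.8% of promoters. CSF1R had 6 before its first start and 2 before its other start, 26811 bases away. CD14 had 5 and CD33 had 2, and the median promoter had 11. The search was for the letters CG, which read the same on both strands. These reference positions were not carried over to hg19.

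**Figure D1:**
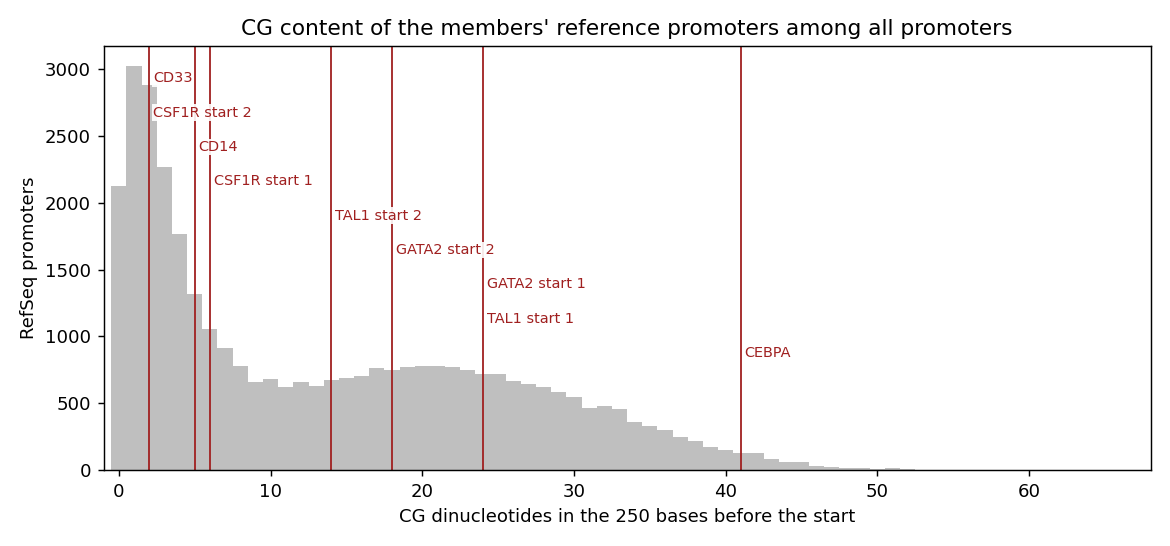
Number of RefSeq promoters (vertical axis) by the count of CG dinucleotides in the 250 bases before the start (horizontal axis). Vertical lines mark the 9 promoter entries of the 6 matched genes, with CEBPA at 41, the first starts of GATA2 and TAL1 at 24, and CSF1R, CD14 and CD33 at 6 or fewer.

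Nearly all of these gene windows met H3K27me3 islands in all 3 lines, though not always over the gene itself. A window met an island at 8 of 8 genes in Pfeiffer cells, 8 of 8 in WSU-DLCL2 cells and 7 of 8 in KARPAS-422 cells, where CEBPD had none. In Pfeiffer the island at CEBPD met only the flank, so 7 genes had an island there when no flank was used. When the autosomes were divided into consecutive tiles of 23.5 kb, the median length of the windows, an island was met by 35.8% of the tiles in Pfeiffer cells, 35.8% in WSU-DLCL2 cells and 37.2% in KARPAS-422. At least 50% of the window was covered at 7 genes in Pfeiffer cells (26.6% of the tiles), 8 in WSU-DLCL2 cells (25.6%) and 7 in KARPAS-422 cells (25.4%). Tiles are stretches of genome rather than genes, so they do not show what share of other genes would be covered. With tiles as long as each gene's own window, the share that met an island ran from 31.5% (CEBPD in WSU-DLCL2) to 48.1% (CSF1R in KARPAS-422). The median covered share of the 8 windows was 100% in Pfeiffer cells, 100% in WSU-DLCL2 cells and 77% in KARPAS-422 cells. Of the 210 kb in the 8 windows, islands held 90.1% in Pfeiffer cells, 88.5% in WSU-DLCL2 cells and 74.4% in KARPAS-422, and 73% lay in islands of all 3 lines. CD33 and MPO were wholly covered in every line, and GATA2 and TAL1 in every line but KARPAS-422.

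**Figure D2:**
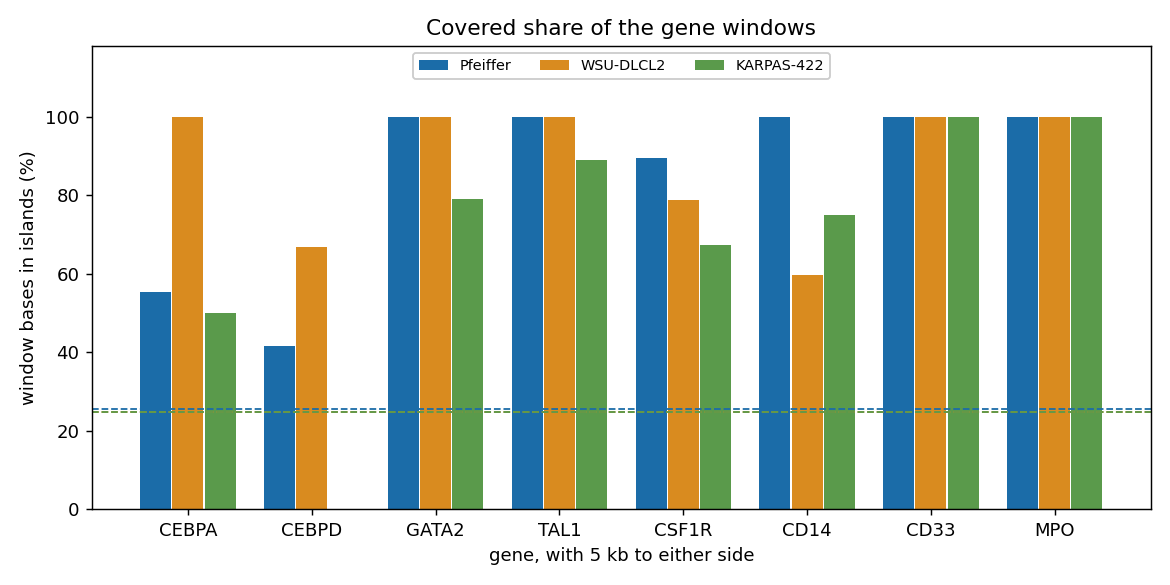
Share of each gene window (the gene with 5 kb to either side) that lay in H3K27me3 islands, in percent, with 1 bar per line. Dashed lines give the covered share of the autosomes, 25.6% in Pfeiffer cells, 24.8% in WSU-DLCL2 cells and 24.7% in KARPAS-422. CEBPD has no bar in KARPAS-422, where its covered share was 0%.

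With the reads of a gene's islands pooled, enrichment was highest at GATA2 in Pfeiffer and WSU-DLCL2 and at CEBPA in KARPAS-422 cells, and lowest at CEBPD in Pfeiffer and WSU-DLCL2 and at CD14 in KARPAS-422 cells. The fold is the ratio of H3K27me3 reads to input reads in an island after scaling of the libraries, as the authors' lists give it. Where a gene met more than 1 island, reads were pooled with the same scaling. The order depends on this pooling, because 1 of the 2 islands at CD14 in WSU-DLCL2 cells had a fold of 2.93, above GATA2 at 2.12. With islands under 5 kb apart joined, CEBPA at 2.08 passed GATA2 at 2.05 in Pfeiffer cells. In WSU-DLCL2 cells CSF1R at 2.02, CEBPA at 1.98 and MPO at 1.96 then stood above GATA2 at 1.94. Exact 95% intervals cover counting error only, as each line had 1 library of each kind. They are too narrow where reads were copied by PCR, since such reads do not count separate molecules. Across the 8 genes the fold had a median of 1.91 in Pfeiffer cells (1.26 to 2.25), 1.91 in WSU-DLCL2 cells (1.39 to 2.12) and 1.98 over the 7 genes with islands in KARPAS-422 (1.32 to 2.86). Over all autosomal islands the medians were 1.58 in Pfeiffer cells, 1.54 in WSU-DLCL2 cells and 1.61 in KARPAS-422. These are not matched for length. The islands at the members had a median length of 79.5 kb in Pfeiffer cells, 60.75 kb in WSU-DLCL2 cells and 37.1 kb in KARPAS-422. All autosomal islands had a median of 20.25 kb in Pfeiffer cells, 18.75 kb in WSU-DLCL2 cells and 15.75 kb in KARPAS-422. An island of fold 2 or more was met at 2 genes in Pfeiffer cells (5.14% of the tiles), 4 in WSU-DLCL2 cells (5.22%) and 4 in KARPAS-422 cells (9.47%). Several genes sat close to that limit, such as CEBPA in WSU-DLCL2 cells at 2.00 and MPO at 1.98 in Pfeiffer and KARPAS-422.

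**Figure D3:**
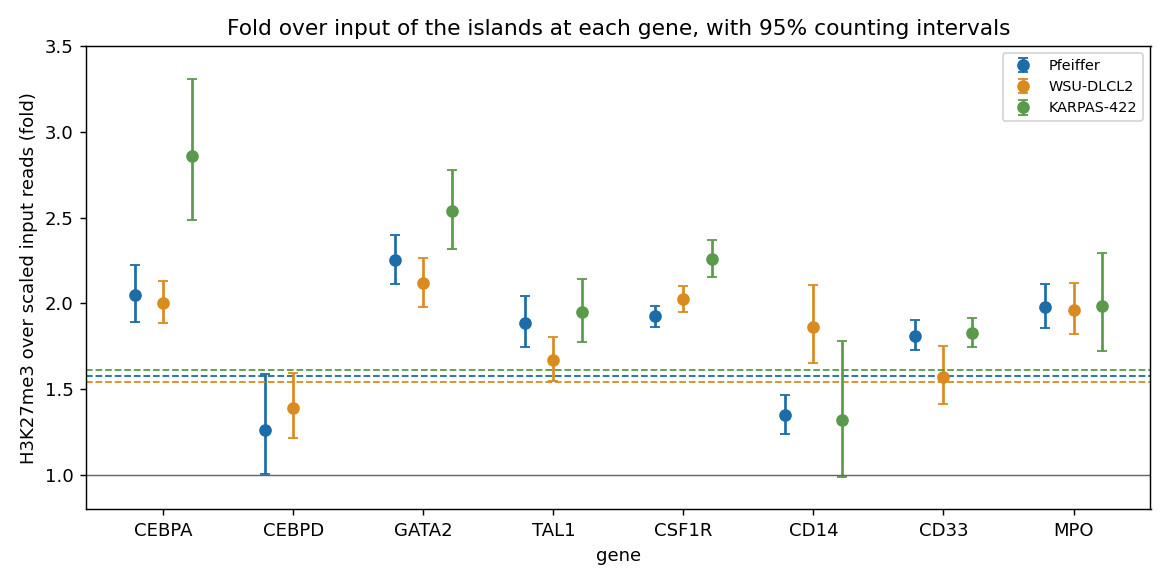
Fold of H3K27me3 over scaled input reads in the islands at each gene, with 1 point per line and bars for the exact 95% counting interval. Dashed lines are the median fold of all autosomal islands of each line, between 1.54 and 1.61. KARPAS-422 has the highest points at CEBPA (2.86), GATA2 (2.54) and CSF1R (2.26), and no point at CEBPD.

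CEBPA, the factor that directs granulocyte formation, lay at the edge of an island in Pfeiffer and KARPAS-422 and inside one in WSU-DLCL2 cells. Its window spans 33785001 to 33799000 on chromosome 19. The Pfeiffer island ran from 33720001 to 33792750 with 2058 H3K27me3 reads and 865 input reads, and that of KARPAS-422 from 33750751 to 33792000 with 1106 and 235. In WSU-DLCL2 it ran from 33670501 to 33808500 with 3638 and 1431. The covered share was 55.4% in Pfeiffer cells, 100% in WSU-DLCL2 cells and 50% in KARPAS-422 cells.

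The kilobase that holds the start of CEBPA was therefore outside the islands of Pfeiffer and KARPAS-422. So were the 5 kb upstream of it. The stretch without an island was 8.25 kb long in Pfeiffer cells and 22.5 kb in KARPAS-422, and reached 1.25 kb into the gene in Pfeiffer cells and 2 kb in KARPAS-422 cells. Folds were 2.05 in Pfeiffer cells (95% interval 1.89 to 2.22), 2.00 in WSU-DLCL2 cells (1.88 to 2.13) and 2.86 in KARPAS-422 (2.48 to 3.31). The interval of KARPAS-422 lay above the others, over an island shorter than theirs. Relative input there, the input reads per kb of all islands centred within 2.5 Mb, as a multiple of that line's autosomal median, was 0.93 in Pfeiffer cells, 0.951 in WSU-DLCL2 cells and 0.865 in KARPAS-422, and its part in the folds was not tested.

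CEBPD, a relative of CEBPA that is induced in myeloid cells by inflammatory signals, had no island in KARPAS-422 and the lowest pooled fold in both other lines. Its window spans 48644001 to 48656000 on chromosome 8. In Pfeiffer an island from 48651001 to 48659250 began where the listed gene interval ends and covered none of it. It held 192 H3K27me3 reads and 131 input reads, with a fold of 1.26 (1.01 to 1.59) and a false discovery rate of 0.000922, just inside the authors' limit of 0.001. In WSU-DLCL2 an island from 48648001 to 48677250 covered the gene, with 606 and 343 reads and a fold of 1.39 (1.22 to 1.59).

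The fold at CEBPD was low for its list, at the 4.89th percentile in Pfeiffer cells and the 25.5th in WSU-DLCL2 cells. KARPAS-422 had no island within 246 kb of the window. Coverage of the 500 kb to either side was 18% in Pfeiffer cells, 19.5% in WSU-DLCL2 cells and 13% in KARPAS-422 cells, the lowest shares of the 8 genes in Pfeiffer and KARPAS-422. Relative input was 1.35 in Pfeiffer cells, 1.33 in WSU-DLCL2 cells and 0.97 in KARPAS-422, so the line without an island also had the lowest input of the 3, and the part of input was not tested. RefSeq names SPIDR and PRKDC as the nearest protein-coding genes to either side.

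GATA2, a factor of blood stem cells and early progenitors, had the highest pooled fold of the 8 genes in Pfeiffer and WSU-DLCL2, an order that joining of islands changes, and the second highest in KARPAS-422 cells. The window spans 128193001 to 128218000 on chromosome 3. Single islands covered it wholly in Pfeiffer cells, from 128126251 to 128229750 with 3485 H3K27me3 and 1333 input reads, and in WSU-DLCL2 cells, from 128130751 to 128229000 with 3133 and 1166. In KARPAS-422 the same stretch was split into islands from 128141251 to 128206500 (2038 and 455 reads) and from 128211751 to 128229750 (440 and 139 reads). On the upstream side these islands ended within 750 bases of each other in the 3 lists, while their other ends differed by more. In every line another island followed upstream after 3 kb, the smallest gap in the lists, so the marked stretch went on beyond this break.

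The break in KARPAS-422, of 5.25 kb, lay inside GATA2 from 1.25 to 6.5 kb downstream of the end that holds its first start, and left 79% of the window covered. As given above, RefSeq lists another GATA2 start 4671 bases from the first. Folds were 2.25 in Pfeiffer cells (2.11 to 2.40), 2.12 in WSU-DLCL2 cells (1.98 to 2.27) and 2.54 in KARPAS-422 (2.32 to 2.78), and the interval of KARPAS-422 lay above that of WSU-DLCL2 and overlapped that of Pfeiffer. These islands stood at the 96.4th percentile of folds in Pfeiffer cells and the 92.2nd in WSU-DLCL2 cells. In KARPAS-422 the longer island was at the 96.8th percentile and the shorter, on the promoter side, at the 76.6th, with folds of 2.72 (2.46 to 3.02) and 1.92 (1.59 to 2.35). Relative input was 1.09 in Pfeiffer cells, 1.06 in WSU-DLCL2 cells and 0.967 in KARPAS-422.

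TAL1, a basic helix-loop-helix factor needed in mice for the formation of all blood cells, lay in the same island in Pfeiffer and WSU-DLCL2. That island ran from 47637751 to 47712750 on chromosome 1 in both lists, over a window of 47676001 to 47703000. It held 1962 H3K27me3 and 895 input reads in Pfeiffer cells, and 2076 and 980 in WSU-DLCL2 cells. KARPAS-422 had islands from 47638501 to 47694000 (1541 and 450 reads) and from 47697001 to 47712000 (283 and 119 reads).

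The outer ends of the TAL1 domain were thus nearly the same in the 3 lines, and KARPAS-422 differed by a break of 3 kb, the shortest the lists can show, from 1 to 4 kb downstream of the end that holds the first start. Folds were 1.89 in Pfeiffer cells (1.74 to 2.05), 1.67 in WSU-DLCL2 cells (1.55 to 1.80) and 1.95 in KARPAS-422 (1.77 to 2.14), and all 3 intervals overlapped. The part of KARPAS-422 on the promoter side had a fold of 1.45 (1.16 to 1.81) at the 27.1st percentile of its list, against 2.08 (1.87 to 2.32) at the 84.3rd for the other part. Relative input was 1.03 in Pfeiffer cells, 1.05 in WSU-DLCL2 cells and 1.01 in KARPAS-422.

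**Figure D4:**
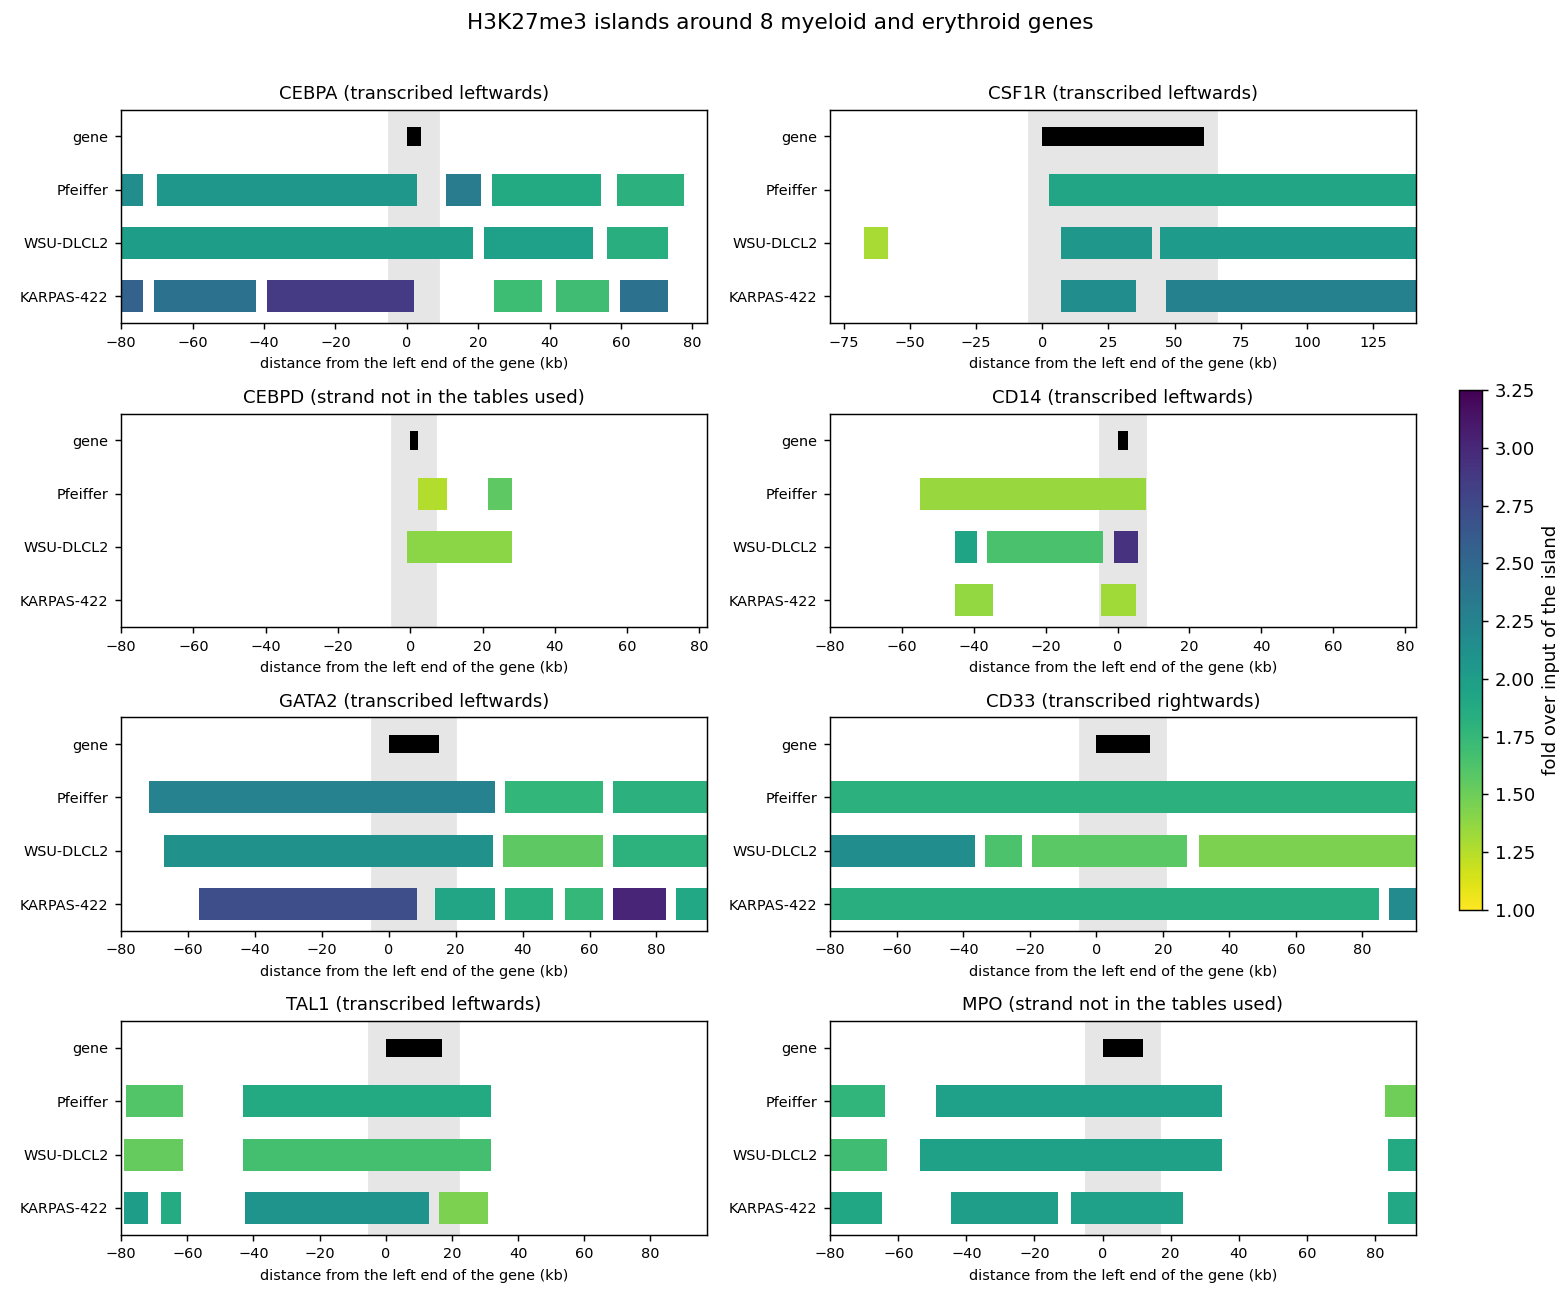
H3K27me3 islands around each gene in the 3 lines, drawn to scale by distance from the left end of the gene in kb, with the gene as a black bar and its window of 5 kb to either side in grey. Colour gives the fold over input of each island. KARPAS-422 shows breaks inside GATA2, TAL1 and CSF1R, of 5.25, 3 and 11.25 kb, and no island at CEBPD.

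CSF1R, the receptor for macrophage colony-stimulating factor, lay at one end of the longest islands met by any member. Its window spans 149427001 to 149498000 on chromosome 5. In Pfeiffer the island ran from 149434501 to 149736750, which is 302.25 kb, with 12304 H3K27me3 and 5504 input reads. WSU-DLCL2 had islands from 149439001 to 149473500 (1086 and 416 reads) and from 149476501 to 149736750 (8463 and 3300). KARPAS-422 had islands from 149439001 to 149467500 (765 and 217) and from 149478751 to 149736750 (7146 and 1913).

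All 3 lists ended this domain at the same base on the upstream side, beyond the promoter of CSF1R, where PDGFRB, CDX1 and SLC6A7 are the next protein-coding genes in RefSeq order. None covered the 5 kb downstream of the gene. The covered share was 89.4% in Pfeiffer cells, 78.9% in WSU-DLCL2 cells and 67.3% in KARPAS-422. The breaks inside the gene lay 16.5 to 19.5 kb from its first start in WSU-DLCL2 cells and 14.25 to 25.5 kb in KARPAS-422, and the other RefSeq start of CSF1R is 26811 bases from the first.

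Folds at CSF1R were 1.92 in Pfeiffer cells (1.86 to 1.99), 2.02 in WSU-DLCL2 cells (1.95 to 2.10) and 2.26 in KARPAS-422 (2.15 to 2.37), and the interval of KARPAS-422 lay above the others. Relative input around the gene ran the opposite way, at 1.55 in Pfeiffer cells, 1.12 in WSU-DLCL2 cells and 1.09 in KARPAS-422, and its part in the folds was not tested. Pfeiffer had the most H3K27me3 reads per kb of these islands, 40.7, against 32.4 in WSU-DLCL2 cells and 27.6 in KARPAS-422, although its fold was the lowest.

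CD14, the monocyte receptor that presents bacterial lipopolysaccharide, had islands of different length and fold in each line. The window spans 140006001 to 140019000 on chromosome 5. In Pfeiffer it lay at the end of a weak island of 63 kb, from 139956001 to 140019000, with 1389 H3K27me3 and 887 input reads. WSU-DLCL2 had a short island of 6.75 kb over the gene, from 140010001 to 140016750, with 238 and 64 reads, and the end of another from 139974751 to 140007000. KARPAS-422 had an island of 9.75 kb, from 140006251 to 140016000, with 152 and 70 reads and a false discovery rate of 0.000525.

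The fold of the short CD14 island in WSU-DLCL2 cells was 2.93 (2.22 to 3.92), at the 99.5th percentile of its list and the 99.2nd among islands between 0.5 and 2 times its length. In Pfeiffer the fold was 1.35 (1.24 to 1.47) at the 14.9th percentile, and in KARPAS-422 1.32 (0.988 to 1.78) at the 9.9th. The interval of KARPAS-422 reached below 1 although the caller listed the island, and it rested on 70 input reads. This island was lost, leaving 0% covered, with a false discovery rate of at most 1e-10 and when the 3 lists were cut to the same number of islands or the same covered length. The interval of WSU-DLCL2 lay above both. Pooled with the longer island that meets the window by 1 kb, the fold of WSU-DLCL2 was 1.86 (1.65 to 2.11). Its interval stayed above that of Pfeiffer but overlapped that of KARPAS-422. Relative input was 1.497 in Pfeiffer cells, 1.00 in WSU-DLCL2 cells and 1.01 in KARPAS-422. RefSeq places TMCO6 over part of the same stretch and NDUFA2 next to it, so an island here cannot be assigned to CD14 alone.

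CD33, a lectin of myeloid cells that binds sialic acid, was wholly covered in every line and lay in the most densely marked surroundings of the 8. Its window spans 51723001 to 51749000 on chromosome 19. The islands ran from 51612751 to 51829500 in Pfeiffer cells, with 5110 H3K27me3 and 2429 input reads, and from 51612001 to 51813000 in KARPAS-422 cells, with 6997 and 2326. WSU-DLCL2 had a shorter island over the gene, from 51708751 to 51755250, with 1028 and 515 reads.

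Although the island over CD33 differed in length, the 500 kb to either side were covered to a like degree, by 81.8% in Pfeiffer cells, 81.7% in WSU-DLCL2 cells and 86.9% in KARPAS-422. The related genes SIGLEC7 and SIGLEC9 are the next to one side in RefSeq order and SIGLECL1 to the other. Folds were 1.81 in Pfeiffer cells (1.73 to 1.90), 1.57 in WSU-DLCL2 cells (1.41 to 1.75) and 1.83 in KARPAS-422 (1.74 to 1.92). The interval of WSU-DLCL2 overlapped each of the others by little. Among islands between 0.5 and 2 times their length, they stood near the middle of their lists, at the 52.5th percentile in Pfeiffer cells, the 52.6th in WSU-DLCL2 cells and the 40.3rd in KARPAS-422. Relative input was 0.947 in Pfeiffer cells, 0.952 in WSU-DLCL2 cells and 1.22 in KARPAS-422.

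MPO, the gene of myeloperoxidase, was wholly covered in every line with nearly equal folds. The window spans 56342001 to 56364000 on chromosome 17. The islands ran from 56298001 to 56382000 in Pfeiffer cells, with 3122 H3K27me3 and 1357 input reads, and from 56293501 to 56382000 in WSU-DLCL2 cells, with 2462 and 988. In KARPAS-422 an island from 56337751 to 56370750 held 822 and 252 reads. Folds were 1.98 in Pfeiffer cells (1.86 to 2.11), 1.96 in WSU-DLCL2 cells (1.82 to 2.12) and 1.98 in KARPAS-422 (1.72 to 2.29), so the 3 intervals overlapped almost wholly. Relative input was raised in Pfeiffer cells, at 1.40, against 0.996 in WSU-DLCL2 cells and 1.05 in KARPAS-422. Pfeiffer had 37.2 H3K27me3 reads per kb of this island, WSU-DLCL2 27.8 and KARPAS-422 24.9. LPO, the gene of another peroxidase, is the nearest protein-coding gene to one side of MPO and TSPOAP1 to the other.

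Gene starts themselves were mostly inside islands. Strand was given for 6 of the genes, all but CEBPD and MPO. The kilobase that holds the annotated end with the start lay wholly in an island at 5 of 6 in Pfeiffer cells, 6 of 6 in WSU-DLCL2 cells and 5 of 6 in KARPAS-422 cells, and CEBPA was the exception in both lines. Of all autosomal tiles of 1 kb, the share wholly in an island was 25.1% in Pfeiffer cells, 24.2% in WSU-DLCL2 cells and 24% in KARPAS-422 cells. In KARPAS-422 the stretch without an island held the start at CEBPA and began within 2 kb downstream of it at GATA2 and TAL1, the 3 genes with 24 or more CG before the first start. CSF1R, CD14 and CD33, with 6 or fewer, had the start inside an island in that line, with no break in the 2 kb downstream of it. At CD14, however, a stretch of 99 kb without an island began 2 kb upstream of the start. The break at TAL1 was gone, and 100% covered, when islands under 5 kb apart were joined, and the island at CD14 was lost under the stricter lists given above. All 3 genes with 24 or more CG showed it in KARPAS-422 alone, as GATA2 and TAL1 were wholly covered in Pfeiffer and WSU-DLCL2. In WSU-DLCL2 the start of CEBPA was covered too. The contrast therefore depends on the line, on the settings and on which side of the start is read. With 6 genes this is a description, and these breaks were chosen after their values were seen.

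Set side by side, KARPAS-422 had less covered sequence and higher folds at most of these genes. Its covered share was below that of Pfeiffer at 6 of 8 genes and equal at 2. It was below that of WSU-DLCL2 at 5, equal at 2 and above at CD14. Of tiles with an island in either line, KARPAS-422 was covered less than Pfeiffer in 44.5% and less than WSU-DLCL2 in 43.2%. Its fold was higher than that of Pfeiffer at 6 of the 7 genes with islands in both lines (61.7% of tiles with islands in both), and higher than that of WSU-DLCL2 at 6 of 7 (63.9%). Its counting interval lay above that of Pfeiffer at 2 genes (CEBPA and CSF1R), against 13.4% of such tiles, and above that of WSU-DLCL2 at 3 (CEBPA, GATA2 and CSF1R), against 18.7%. At CSF1R this held for the pooled islands and not for the island with the largest overlap. The interval of WSU-DLCL2 lay above that of Pfeiffer at CD14 alone, against 7.2%, and no other pair of intervals was apart. In most such tiles over the genome, too, KARPAS-422 had the higher fold. Each fold rests on the libraries and scaling of its own line. Input reads summed over the whole islands at the members were fewest in KARPAS-422, 6176 against 13401 in Pfeiffer cells and 9519 in WSU-DLCL2 cells. Fewer reads widen its intervals. These sums also depend on the length of the islands, much of which lies outside the windows.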

How the data were processed

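H3K27me3 and input chromatin of 3 cell lines was sequenced, and 1 island list per line was used. The submitters' processing notes name Bowtie, SICER and hg19, without versions as used here. Per the names of the deposited files, windows were 750 bases, gaps up to 2250 bases were bridged, and islands passed a false discovery rate of 0.001. The deposited lists hold whole counts of H3K27me3 and input reads per island, a p-value, a q-value and a ratio (fold) of the counts after library scaling, all made by the authors. Full library depth is unknown, and duplicate handling is not given in the sources used here.

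Genes and windows were read from a fixed list of hg19 intervals given to the kilobase, and 1 base of overlap counted. Members and lists were chosen with earlier results of these data known. Starts used the strand in the RefSeq promoter table. The scaling was recovered as the constant ratio of counts to fold, 1.16, 1.27 and 1.65 for Pfeiffer, WSU-DLCL2 and KARPAS-422. Fold intervals are exact (Clopper-Pearson) at 95%. They were tested on simulated Poisson counts with a known scaling, which checks the calculation and not whether real reads behave this way. Tiles ran along the 22 autosomes, each up to its last listed base. Relative input needed at least 30 kb of islands. All 8 members are named. Other myeloid, erythroid and B cell genes were not analysed here, since no hg19 annotation was used. Alternatives were other flanks, stricter or joined islands, lists of equal number or length, a larger overlap, other pooling or scaling of reads, and a narrower input window. Scripts ran under scipy 1.17.1, pandas 2.3.3, numpy 2.4.6 and Python 3.11.15.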

Additional observations from a re-analysis of the deposited data

How the results depend on the processing

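No paired analysis was possible because each line had 1 library of each kind. Genes with an island stayed within 1.5 times of their number under every alternative run except a fold of at least 2, which left 2 genes in Pfeiffer cells, 4 in WSU-DLCL2 cells and 4 in KARPAS-422 cells. That limit also lowered the median covered share to 0% in Pfeiffer cells, 26% in WSU-DLCL2 cells and 25% in KARPAS-422 cells, the summed share to 15.6% in Pfeiffer cells, 48.5% in WSU-DLCL2 cells and 41.1% in KARPAS-422, and the covered starts to 1 in Pfeiffer cells and 1 in KARPAS-422 cells. With a false discovery rate of at most 1e-10, KARPAS-422 kept 66.9% of the windows covered and 3 starts. With no flank the summed share was 95.6% in Pfeiffer cells and 92.3% in WSU-DLCL2 cells, and with 20 kb it was 79.9% in Pfeiffer cells, 81.1% in WSU-DLCL2 cells and 63.4% in KARPAS-422, with a median of 84.3% in Pfeiffer cells. With islands under 5 kb apart joined, 1 gene of WSU-DLCL2 in place of 4 met an island of fold 2 or more.

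Of 216 alternative values of a single gene's covered share, 182 stayed within the binomial interval of the 750-base pieces of its window, 28 were lower and 6 higher. Neighbouring pieces are not independent, and the interval is wide for a short window. At CEBPA in Pfeiffer cells a move from 55.4% to 74.4% with 20 kb flanks counted as within it. The count is therefore a rough guide and does not measure stability. Of 99 alternative values of a fold with scaled input, 93 stayed within its counting interval. Of the rest, 2 were higher, both at CD14 in WSU-DLCL2 cells, and 4 lower. Folds were counted only where an island was left, so genes that lost theirs are not among the 99. A stricter list leaves the fold of a single kept island unchanged, so such values could not move. Leaving out the scaling multiplies every fold of a line by its constant. All 24 of relative input moved by under 10%. The causes of the other changes were not tested. Among single islands, input reads were fewest at CD14, with 64 in the short island of WSU-DLCL2 and 70 in KARPAS-422 cells, and next fewest at the shorter TAL1 island of KARPAS-422, with 119.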

Other observations

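The surroundings of the members differed in coverage. In the 500 kb to either side, coverage in Pfeiffer cells was 58.8% at CEBPA, 42.3% at GATA2, 51.9% at TAL1, 64.3% at CSF1R, 72.9% at MPO and 81.8% at CD33, but 25.9% at CD14 and 18% at CEBPD. In WSU-DLCL2 CD14 had the least covered surroundings, 17.3%, with a pooled fold of 1.86, above TAL1 at 1.67 and CD33 at 1.57. In KARPAS-422 the same stretches were 52% covered at CEBPA, 33.1% at GATA2, 47.8% at TAL1, 51.1% at CSF1R, 57.8% at MPO, 86.9% at CD33, 23.8% at CD14 and 13% at CEBPD. Whole chromosomes were covered less than these surroundings at CEBPA, with 36.1% of chromosome 19 in Pfeiffer cells, 32.9% in WSU-DLCL2 cells and 34.4% in KARPAS-422. At CEBPD the surroundings were instead covered less than their chromosome in every line, and at CD14 in Pfeiffer and WSU-DLCL2.

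Full coverage of a window was uncommon but not rare along the genome. Of consecutive tiles as long as the GATA2 window, 12% were wholly covered in Pfeiffer cells and 10.7% in WSU-DLCL2 cells. For the window of MPO the shares were 13% in Pfeiffer cells, 11.7% in WSU-DLCL2 cells and 10.2% in KARPAS-422. On its own chromosome, 17, they were 26.8% in Pfeiffer cells, 22.2% in WSU-DLCL2 cells and 19.5% in KARPAS-422. The islands at the members ranged widely in length within their lists. In Pfeiffer that of CSF1R stood at the 99.5th percentile of length, that of GATA2 at the 94.5th and that of TAL1 at the 90.3rd. That of CEBPD stood at the 9.09th there. Those of CD14 stood at the 7.62nd and 71.9th in WSU-DLCL2 cells and at the 26.1st in KARPAS-422.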
